A study of Mus musculus with 12 samples.

Results

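Stomach surface-like cells were 150 cells out of 27881 in a single-cell transcriptome table of mouse small intestinal epithelium. They were the highest-scoring cells for 4 genes of the stomach lining: Tff1, Gkn1, Gkn2 and Muc5ac. The score was the mean over these genes of log1p(10000 × value / cell total). The high values of the 4 genes in these cells are therefore a consequence of the choice and are given only as a description. The samples carried the label small intestine, and no label named the stomach.

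The table came from 8 samples called Diet, numbered in their titles, whose diets the labels do not name. All were adult Lgr5DTR-GFP mice, a strain in which the stem cell gene Lgr5 drives a diphtheria toxin receptor and a fluorescent protein, and cells were sorted as CD45- and EpCAM+. Each small intestine was divided into 30 equal pieces, and the cells of each received a MULTI-seq oligonucleotide barcode before sorting and 3′ droplet sequencing. Another 2 total epithelium samples and 2 progenitor samples of the same strain were not analysed here.

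The stomach surface is covered by mucous cells that secrete the gel-forming mucin Muc5ac together with small partner proteins. Trefoil factors such as Tff1 are stable peptides that bind mucins and promote the closure of epithelial wounds, and gastrokines such as Gkn1 and Gkn2 are secreted proteins made almost exclusively in the stomach. The intestine makes a different gel from Muc2 and Tff3 in goblet cells. Below the stomach surface, and in Brunner's glands of the proximal duodenum, gland cells make Muc6 and Tff2.

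In the mouse genome (GRCm38, GENCODE annotation) the selecting genes lie beside their relatives. Gkn1, Gkn2 and the third gastrokine, Gkn3, lie within 43.3 kb of chromosome 6, from 87345650 to 87388935. Tff1 shares 40.0 kb of chromosome 17 (31125306 to 31165277) with Tff2 and Tff3, and Muc5ac lies 3′ of Muc2 in a mucin cluster with Muc6 on chromosome 7 (141633456 to 141819231, 185.8 kb). The 250 bases before the RefSeq start of each gastrokine gene are shown because Gkn1 and Gkn2 helped to choose the members while their neighbour Gkn3 did not. They are written 5′ to 3′ on the gene's strand, from build GRCm38.p6, with capitals for 2 motifs searched on both strands. The core promoter element TATAAA is one, and AGATAA, which zinc finger factors such as Gata4 bind, is the other.
Gkn1, chr6:87350916-87351165, minus strand: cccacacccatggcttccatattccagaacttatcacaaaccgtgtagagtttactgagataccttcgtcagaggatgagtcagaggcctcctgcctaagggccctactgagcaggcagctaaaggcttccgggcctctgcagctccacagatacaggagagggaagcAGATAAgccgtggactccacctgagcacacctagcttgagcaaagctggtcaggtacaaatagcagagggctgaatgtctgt
Gkn2, chr6:87373115-87373364, plus strand: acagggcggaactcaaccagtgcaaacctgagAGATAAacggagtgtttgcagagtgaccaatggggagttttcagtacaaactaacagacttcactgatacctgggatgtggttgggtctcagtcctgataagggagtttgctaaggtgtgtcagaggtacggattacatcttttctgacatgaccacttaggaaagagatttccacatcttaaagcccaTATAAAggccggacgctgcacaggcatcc
Gkn3, chr6:87388936-87389185, minus strand: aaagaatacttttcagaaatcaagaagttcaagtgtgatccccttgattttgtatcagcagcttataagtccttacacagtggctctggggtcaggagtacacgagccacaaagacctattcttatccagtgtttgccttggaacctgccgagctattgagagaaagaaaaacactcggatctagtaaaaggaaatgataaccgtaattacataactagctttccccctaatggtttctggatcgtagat
AGATAA began 82 bases before the start of Gkn1 and 218 bases before that of Gkn2, and TATAAA began 29 bases before that of Gkn2. Of 32851 RefSeq promoters cut to the same length, 9.99% held AGATAA and 12.4% held TATAAA. The forkhead motif TGTTTAC, held by 3.17% of promoters, was in none of the 3 windows. None of these matches overlapped another. A match describes the letters only.

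Values in the table were whole numbers that had been adjusted by a step not given in the sources used here, so they were treated as a score and the depth behind them is unknown. Levels are given as ppm (parts of the total over all genes in the same cells), and differences as log2 of members over comparison cells with 1 ppm added to both, which understates differences of low genes. Cells carried 1 of 8 barcode suffixes, called barcode sets here, which could not be matched to samples. With 1 pooled sample no test was possible, and no p-value is given. A gene was called higher or lower where the mean of both sides was at least 10 ppm, the difference at least 1 on the log2 scale, and the direction the same in each of the 6 barcode sets with at least 5 members. Fewer cells of a kind and less RNA per cell cannot be told apart in such sums. The median cell total was 5503 and the median number of detected genes 2219, 157 cells shared a barcode sequence with a cell of another set, and none of these was a member.

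The score of the members ran from 0.93 to 6.41, with a median of 3.73. All 4 selecting genes were above 0 in 59 members, 3 of them in 70 and 2 in 21. Together they took 0.0861% to 49.2% of a member's total, with a median of 5.06%. The lower end was arbitrary. The cell ranked 150 had a value of 2 for Tff1 and 2 for Gkn2 in a total of 3661, and the cell ranked 151, just outside, had the same values in a total of 3664. In 42 members the selecting genes took less than 1% of the cell total.

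**Figure D1:**
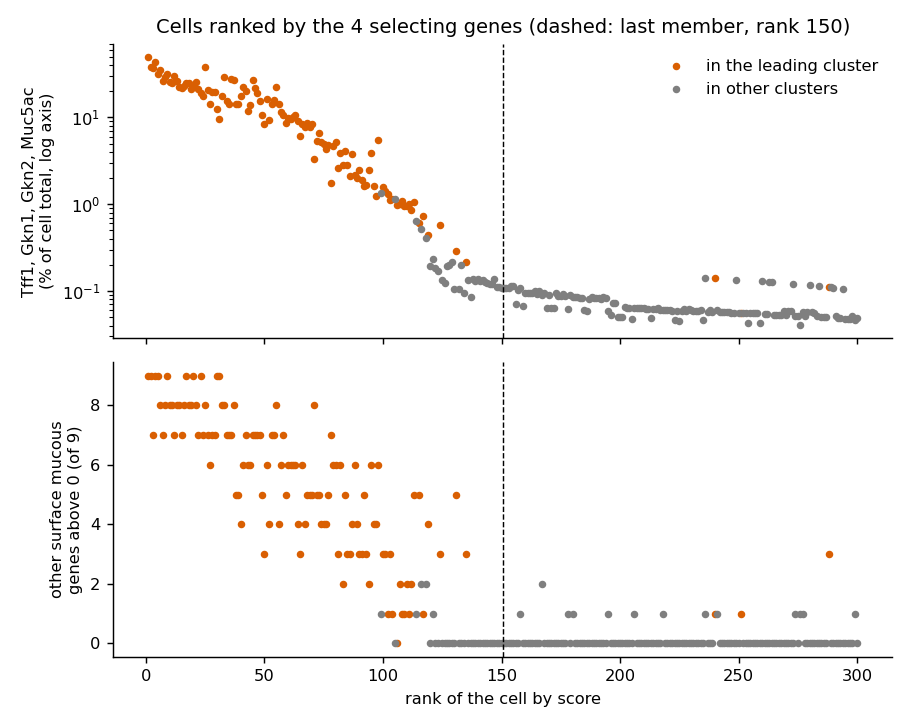
Cells ranked 1 to 300 by the score, with the percentage of the cell total in the 4 selecting genes (upper panel, log axis) and the number of 9 other stomach surface genes above 0 (lower panel). Colour marks the cluster that held most members, and the dashed line the last member at rank 150; all 50 cells ranked 1 to 50 had at least 3 of the 9 genes, against 8 of the 50 ranked 101 to 150.

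Tff1 reached 63424 ppm in the members and 16.6 ppm in all other cells. Over the 6 barcode sets its level in members was lowest at 36805 ppm, had a median of 69399 ppm and was highest at 87504 ppm. Gkn1 reached 25335 ppm and Gkn2 27489 ppm in members, against 7.09 and 7.65 ppm in all other cells. Muc5ac reached 1267 ppm against 0.28 ppm, but only 59 of 150 members had any value of it. In the member with the highest level, Tff1 alone took 261816 ppm. For each of the 4 genes the lowest set of members lay above the highest set of other cells, as the choice of cells fixes.

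The same genes were listed in a minority of other cells at low values. Tff1 was above 0 in 7.11% of all other cells (median total 5505) and in 4.74% of goblet cells (median total 4945), against 98.0% of members (median total 5102). Across barcode sets this share in other cells ran from 0.0682% in set 6 to 17.6% in set 2 and 18.3% in set 5. Gkn1 was above 0 in 3.31% and Gkn2 in 3.61% of all other cells. Their part in the choice of low-scoring members was not tested.

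Members were found in all 8 barcode sets, but unevenly. Set 7 held 45, set 2 held 31, sets 3 and 5 held 28 each, and these 4 sets together 132 (88.0%). Set 4 held 9, set 8 held 6, set 1 held 2 and set 6 held 1. As a share of a set's cells, members ran from 0.0341% in set 6 (exact Clopper-Pearson 95% interval 0.000863 to 0.19%) through a median of 0.536% to 0.997% in set 5 (0.663 to 1.44%). The intervals cover counting error only. The intervals of sets 5, 7, 3, 2 and 4 overlapped, with shares of 0.846%, 0.781%, 0.677% and 0.394% in the last 4.

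**Figure D2:**
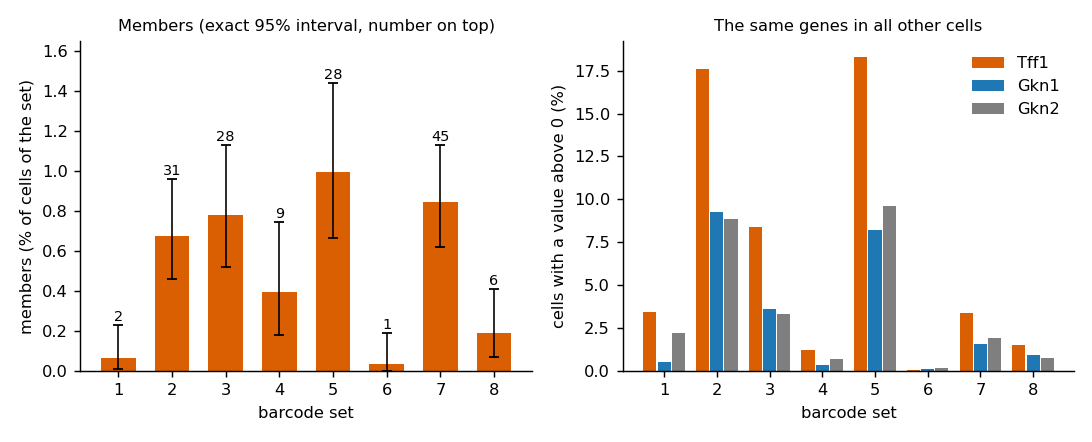
Members as a percentage of the cells of each barcode set with exact 95% intervals and the number of members above the bar (left), and the percentage of all other cells with a value above 0 for Tff1, Gkn1 and Gkn2 (right). Set 5 had the highest share of members (0.997%) and of other cells with Tff1 (18.3%), set 2 the highest share with Gkn1 (9.25%), and set 6 the lowest share of members and of other cells with each of the 3 genes.

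To see whether the members grouped together on genes the score did not use, all cells were clustered without the 4 selecting genes. These 4 were removed after scaling to cell totals, so their share of a total still lowered the scaled values of the other genes. Of 19 clusters, a single one of 162 cells held 117 of the 150 members (78.0%, exact 95% interval 70.5 to 84.3%), which made up 72.2% of it. The interval covers counting error only, since cells are not replicates, and the share depends on how many cells are taken as members. This cluster held all 50 members ranked 1 to 50, 49 of those ranked 51 to 100 and 18 of those ranked 101 to 150. The remaining 33 members lay in 8 other clusters, and 32 of these 33 were among the 50 lowest-scoring. The 117 and the 33 are described separately where they differ.

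Other genes of the gastric surface were higher in the members almost without exception. Of 10 measured genes of this list, none of which entered the score, 9 were called higher and none lower, where 4.11% of the 9119 genes considered were called higher against all other cells and 11.7% lower. The same shares stand beside each list count against all other cells below. The called genes of this list other than Gkn3 were all under 10 ppm in other cells. Such genes reached the 10 ppm mean only through the members and could not be called lower, so their count is a description only. The same holds for genes under 10 ppm in other cells in the lists below. The median log2 difference of the list was 8.64, against -0.37 over all genes considered. Capn9, a stomach calpain protease, was the exception: it was at 35.8 ppm in members and 2.64 ppm in all other cells, with differences of -3.41 to 5.17 over the sets.

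Mucl3, a mucin-like glycoprotein, was at 1586 ppm in members (sets 916 to 2621, median 1333) and at 0.71 ppm in all other cells. It was above 0 in 62.0% of members and 0.34% of other cells. Anxa10, an annexin of the gastric lining, was at 1160 ppm in members (sets 614 to 1625) and 0.997 ppm in all other cells, and was found in 107 of 150 members. Psca, a membrane-anchored surface protein, was at 1061 ppm in members (sets 323 to 1904) and 0.32 ppm elsewhere. For all 3 genes the lowest set of members lay above the highest set of other cells. Here and below, such a separation is a description only. The share of all genes considered that separate in this way is not given.

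Ctse, the aspartic protease cathepsin E, was at 1143 ppm in members and 1.14 ppm in all other cells. Cldn18, the tight junction claudin of the stomach, was at 957 and 0.54 ppm, and the junction-associated immunoglobulin protein Vsig1 at 357 and 0.21 ppm. The transmembrane mucin Muc1 was at 103 ppm in members and 0.78 ppm in other cells, and Capn8, the partner of Capn9, at 88.3 and 8.63 ppm. The sets of members and of other cells did not overlap for any of these 5 genes. All 5 were under 10 ppm in other cells and passed the filter through their level in the members. Gkn3, counted in this list, was not confined to the members or to surface markers. It was at 1071 ppm in members and 37.4 ppm in other cells, and was above 0 in 43.3% of members and 10.5% of others. It was found in 14 of the 15 members with the gland mucin Muc6. A single set 1 member, ranked 135, held 35.6% of the summed Gkn3 of all members, and without it the level was 697 ppm.

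**Figure D3:**
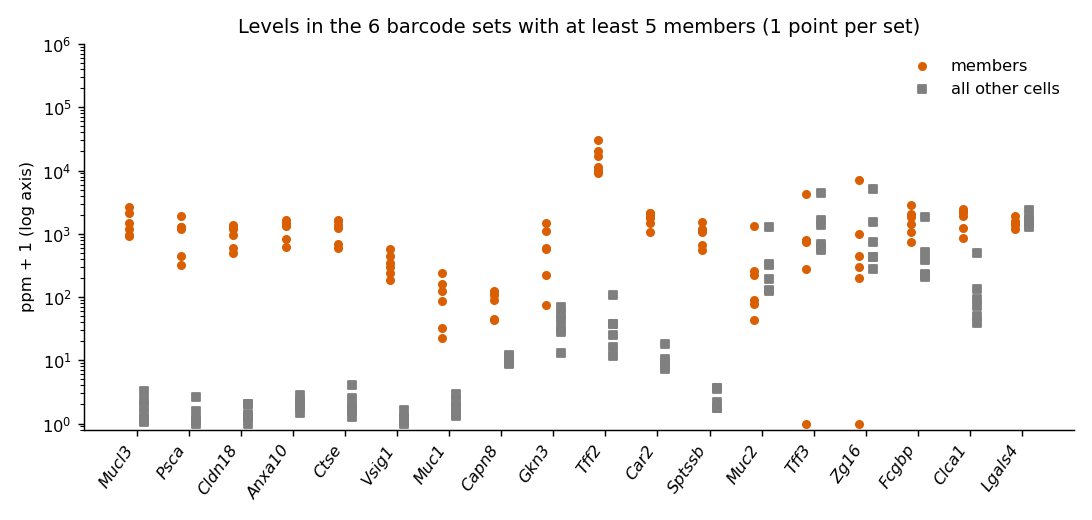
Levels (ppm + 1, log axis) of 18 genes in members (circles) and all other cells (squares), with 1 point for each of the 6 barcode sets with at least 5 members. Mucl3 to Tff2, Car2 and Sptssb separate in every set, for example Mucl3 at 916 to 2621 ppm against at most 2.22 ppm, whereas Muc2, Tff3, Zg16, Fcgbp and Lgals4 overlap.

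These genes tracked the score only down to a point. Of the 9 surface genes other than Gkn3, at least 3 were above 0 in 105 of 150 members, against 0.0433% of all other cells and 0.0406% of goblet cells. All 50 members ranked 1 to 50, 47 of those ranked 51 to 100 and 8 of those ranked 101 to 150 reached this number. Of the cells ranked 151 to 300, 1 did. By these markers the name stomach surface-like held for most of the 100 highest-scoring members and for few of the last 50, of which 29 had none of the 9 genes.

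Gland genes were mixed. Of 5 measured genes of neck, antral and Brunner glands, 1 was called higher and none lower. Tff2, the trefoil factor of mucous neck and gland cells, was at 16463 ppm in members (sets 9092 to 30805, median 14080) and 35.6 ppm in other cells (sets 10.8 to 106), and was found in 126 of 150 members. Muc6, the gland mucin, was at 89.5 ppm in members and 2.10 ppm in other cells, but in only 15 members, and the set 1 member ranked 135 held 66.2% of it. Without that cell Muc6 was at 30.5 ppm. Pgc, the pepsinogen precursor progastricsin, was at 110 ppm in members and 2.46 ppm in others, found in 35 members, with a set level of 0 at its lowest.

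No marker of the other stomach cells was called higher against all other cells, but few could be called. The 10 ppm mean was reached by 1 of 4 chief, 1 of 2 parietal, 2 of 4 endocrine and 0 of 5 squamous genes measured. The parietal genes Atp4b, Kcne2 and Slc26a7 and the squamous genes Krt5 and Krt6a were not among the genes measured. None of the 4 chief cell genes measured was called. Besides Pgc, which is also a chief cell gene, Pga5, a pepsinogen, was listed at 0 in all members, and Cblif, which encodes gastric intrinsic factor, was found in 1 member. Atp4a, the proton pump subunit that defines parietal cells, was listed at 0 in members, and Kcnq1, a potassium channel that intestinal cells also carry, was called lower. Hdc, the histamine-forming enzyme of gastric endocrine cells, was listed at 0, and gastrin (Gast) was found in 1 member. The other two endocrine genes, which the intestine also makes, were present without a call: somatostatin (Sst) at 111 ppm in members and 194 ppm in other cells, and ghrelin (Ghrl) at 41.4 and 62.2 ppm. Of the squamous genes of forestomach and oesophagus, Krt14, Krt4 and Trp63 were listed at 0 and Krt13 was found in 1 member.

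Some transcription factors of the foregut were higher in the members. Of 18 measured, 7 were called higher and none lower, with a median log2 difference of 1.53. Sox2, a factor that specifies stomach rather than intestine in development, was at 25.7 ppm in members and 0.03 ppm in other cells, and was found in 20 members and 0.0144% of other cells. Sox21 was at 103 ppm against 0.64 ppm, and Foxq1, a forkhead factor known to control Muc5ac in mouse stomach, at 396 ppm (sets 218 to 711) against 11.1 ppm (sets 7.44 to 15.9). For these 3 genes the member sets lay above every set of other cells.

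Pdx1, a factor of antrum, duodenum and pancreas, was at 48.1 ppm in members and 8.10 ppm in other cells. Klf4, which promotes differentiation of surface epithelia, was at 749 and 106 ppm, Foxa1 at 93.9 and 14.9 ppm and Foxa3 at 53.7 and 18.2 ppm, all called higher. Nkx6-3, an antral homeobox factor, was at 106 ppm in members and 3.05 ppm in other cells but was not called, because its level was 0 in one set. Gata4, shared by stomach and proximal intestine, differed by 0.61, from 0.03 to 1.08 over the sets.

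Several intestinal identity genes were lower. Of 12 measured, 5 were called lower and none higher, with a median log2 difference of -1.22. Cdx2, the homeobox factor that sets intestinal fate, was at 19.0 ppm in members (sets 0 to 43.1) and 72.5 ppm in other cells (sets 53.5 to 86.6). Its relative Cdx1 was at 25.7 and 101 ppm, and the intestinal homeobox factor Isx at 13.4 and 81.5 ppm. Cdh17, the intestinal cadherin, was at 180 and 465 ppm. The sets of members and other cells did not overlap for these 4 genes.

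Other genes of the same list showed no call. Lgals4, a lectin of the gut epithelium, was at 1515 ppm in members and 1775 ppm in other cells and was found in 148 of 150 members. Phgr1 was at 740 and 644 ppm. Vil1, the brush border protein villin, was at 251 and 532 ppm and Hnf4a at 162 and 301 ppm. Cdx2 was above 0 in 13 of 150 members (8.67%), against 30.0% of all other cells and 22.4% of goblet cells. The median number of detected genes was 1957.5 in members, 2220 in all other cells and 1813 in goblet cells.

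**Figure D4:**
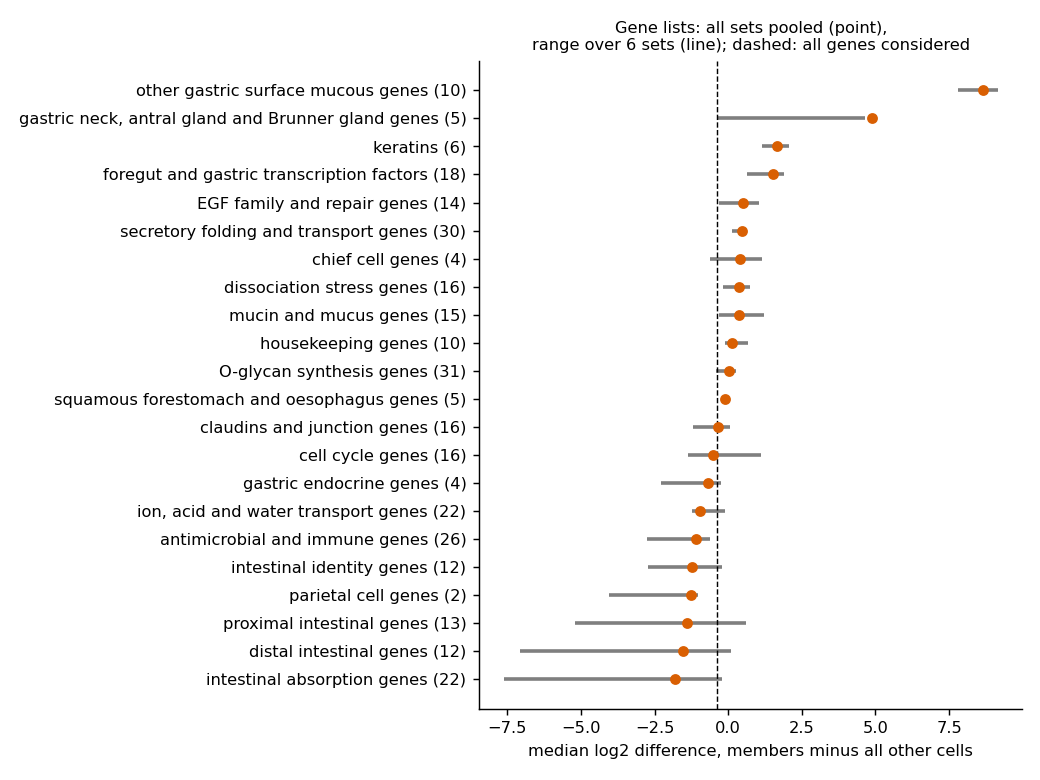
Median log2 difference between members and all other cells for each gene list (number of measured genes in brackets), pooled over sets (point) and its range over 6 barcode sets (line), with the median of all genes considered at -0.37 (dashed line). Other gastric surface mucous genes stand at 8.64, while the pooled point of the gland list (4.87) lies above its set range and was 3.33 without set 1, the set of the member ranked 135.

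The members carried transcripts of both stomach and intestinal mucus components. Of 15 mucin and mucus genes measured, selecting genes included, 6 were called higher and 1 lower against all other cells. Clca1, a secreted goblet cell protease of mucus, was at 1616 ppm in members and 126 ppm in all other cells, and Fcgbp, a large mucin-binding protein, at 1483 and 495 ppm. Muc2 was at 217 ppm in members and 337 ppm in other cells and was not called, nor were Tff3 (836 and 1395 ppm) and Zg16 (809 and 1216 ppm), a lectin of intestinal mucus. Muc13, a transmembrane mucin of the intestine, was lower at 439 and 1087 ppm.

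Goblet cells were taken as cells with Fcgbp, Clca1 and Muc2 all above 0. Of 4970 such cells 38 were members, a share of 25.3% of the members against 17.8% of all other cells, and the 4932 others served for comparison. These 4932 were not goblet cells alone by their markers. Their summed enterocyte markers were at 19794 ppm, above their goblet markers (11845 ppm). Enterocyte markers summed to 14118.5 ppm in all other cells and 4279 ppm in members. Sets 1 and 4 held 1423 and 1398 of the 4932 cells but 2 and 9 of the members, so goblet shares and levels were not matched on barcode set. Against the 4932 cells 376 of 8827 genes considered were higher in members (4.26%) and 802 lower (9.09%). With these cells weighted to the members over barcode sets, 383 were higher and 902 lower. Against all other cells 375 were higher and 1063 lower. The comparisons share the members, and the goblet cells are among all other cells.

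Where the selecting genes were left out of the cell totals, a choice made after seeing the data, 438 genes were higher and 787 lower against all other cells, 444 and 583 against goblet cells, and the median over all genes considered moved from -0.37 to -0.19 and from -0.25 to -0.06.

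Muc2 was at 217 ppm in members and 1103 ppm in goblet cells, Fcgbp at 1483 and 1620 ppm and Clca1 at 1616 and 581 ppm, but these genes define the goblet group. The difference of Clca1, 1.47, was -1.30 against the 150 cells with the highest mean of the 3 genes. Outside that rule, Tff3 was at 836 ppm in members (sets 0 to 4252) and 3433 ppm in goblet cells, a difference of -2.04 and called lower. Zg16 differed by -2.12 but not in every set. Agr2, the disulfide isomerase that folds mucins, was at 1702 ppm in members and 529 ppm in goblet cells, also without a call, a difference of 1.68 that was 2.47 without set 7.

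Among enzymes that build mucin sugars, 6 of 31 measured were called higher and 3 lower. Of the 31, 21 reached the 10 ppm mean and could be called. Among all genes considered 4.11% were higher and 11.7% lower, so the 3 lower calls are near the share of all genes. Gcnt3, which branches core O-glycans, was at 224 ppm in members, with 109 to 388 ppm over the sets, and at 6.85 to 16.2 ppm over the sets of other cells. Fut2, the secretor fucosyltransferase, was at 114 and 2.09 ppm. The initiating transferases Galnt4 and Galnt7 were higher by 1.36 and 1.45 on the log2 scale, Galnt12 by 1.02 and the fucosyltransferase Fut4 by 1.21. B4galnt2, which makes the Sda antigen in the gut, was lower at 129 ppm in members (sets 31.0 to 214) and 374 ppm in other cells (sets 327 to 439). St6galnac2 and Galnt10 were also lower, by -1.46 and -1.25. The list as a whole had a median of 0.02.

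Genes of secretory granules were higher in part. Of 30 genes of protein folding and secretory transport, 6 were called higher and 2 lower, with a median of 0.46. Of the 30, 27 reached the 10 ppm mean. The lower calls were a smaller share than the 11.7% of all genes considered, and the higher calls a larger share than the 4.11%. Agr2 was at 1702 ppm in members and 239 ppm in all other cells. Ern2, the stress sensor of mucous cells, was at 69.3 and 5.77 ppm, while the general sensor Ern1 was lower at 24.6 and 53.9 ppm. The vesicle GTPases Rab27a (117 and 6.03 ppm), Rab27b (369 and 33.7 ppm) and Rab3d (87.2 and 10.3 ppm) and their effector Sytl2 (205 and 15.3 ppm) were all called higher. Agr3, a relative of Agr2, was lower at 7.83 and 16.9 ppm. General chaperones showed no call, such as Hspa5 at 599 and 353 ppm.

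Transport genes differed gene by gene. Of 22 for ions, acid and water, 2 were called higher and 5 lower. Car2, a cytosolic carbonic anhydrase that supplies bicarbonate, was at 1659 ppm in members (sets 1062 to 2142) and 8.96 ppm in other cells (sets 6.20 to 17.0), and was found in 115 members. Slc26a9, an anion transporter of gastric surface cells, was at 28.0 ppm in 17 members and 0.00631 ppm in other cells. Car4, the membrane-bound carbonic anhydrase, was at 3.35 and 66.3 ppm, and Slc26a3, the intestinal chloride-bicarbonate exchanger, at 15.7 and 87.1 ppm. The cotransporter Slc12a2 and the water channel Aqp1 were lower by -1.73 and -1.60.

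Keratins and junctions also differed. Of 6 keratins, which form the filaments of simple epithelia, 5 were called higher: Krt7 at 339 ppm in members and 49.0 ppm in others, Krt18 at 772 and 207 ppm, Krt19 at 2283 and 844 ppm, Krt8 at 3642 and 1693 ppm and Krt23 at 73.8 and 8.52 ppm. Krt20, a keratin of mature intestinal cells, was at 433 and 447 ppm. Of 16 junction genes, Cldn18 was called higher and the intestinal claudins Cldn3, Cldn7 and Cldn15 lower, Cldn15 at 36.9 ppm against 154 ppm. Sets of members and other cells did not overlap for these called genes. Of 14 genes of EGF signalling and repair, 3 were higher: the EGF family ligand Areg (185 and 15.5 ppm), the urokinase receptor Plaur (57.0 and 3.17 ppm) and the alarmin Il33 (93.9 and 5.59 ppm).

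Several intestinal defence genes were lower. Of 26 antimicrobial and immune genes measured, 9 were called lower and none higher, with a median of -1.10. The C-type lectins Reg3b and Reg3g, which kill or hold off bacteria, were at 356 and 256 ppm in members and at 2711 and 1332 ppm in other cells, and Reg3a at 2.24 and 95.6 ppm. Pigr, the receptor that carries IgA across the epithelium, was at 650 ppm in members and 1534 ppm in others. The chemokines Ccl25 and Ccl28 were at 125 and 15.7 ppm in members and 383 and 47.6 ppm in others. H2-Ab1 of the class II antigen complex was at 4.47 and 37.5 ppm, B2m of class I at 180 and 519 ppm, and the nitric oxide synthase Nos2 at 1.12 and 29.1 ppm. Dmbt1, a mucosal scavenger protein, was at 797 and 879 ppm and was not called.

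Absorption genes were lower on balance but varied between sets. Of 22 measured, 10 were called lower and none higher, with a median of -1.82 and a range over sets of -7.62 to -0.20. Without set 7 the median was -2.52. Lct, the brush border lactase, was at 14.5 ppm in members and 149 ppm in other cells, the fructose carrier Slc2a5 at 1.12 and 27.4 ppm, the sodium-glucose carrier Slc5a1 at 124 and 516 ppm, and Mttp, which loads lipid onto lipoproteins, at 102 and 471 ppm. The fatty acid binding protein Fabp1 was at 1483 and 4535 ppm without a call: in members it was listed at 0 in set 8, was at 290 to 981 ppm in sets 2 to 5, and reached 4360 ppm in set 7. Set 7 was also the only one of these 6 sets in which members had more Fabp1 than other cells (1928 ppm).

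Some genes that mark position along the intestine were lower too, and most were not called. Of 13 proximal genes, 2 were higher, Pdx1 and the glutathione transferase Gsta1 (1760 ppm in members, 208 ppm in others), and 5 lower, among them Cyp2b10 (2.24 and 36.3 ppm) and Ms4a10 (11.2 and 110 ppm). Of 12 distal genes none was higher and 3 were lower, among them Osr2 (8.95 and 47.2 ppm). The bile acid binding protein Fabp6 of the ileum was at 422 and 2300 ppm without a call. Of 16 cell cycle genes 1 was called, Mcm2, lower at 10.1 and 26.0 ppm, a smaller share than the 11.7% of all genes considered. Mki67, a marker of dividing cells, was at 196 ppm in members and 199 ppm in others. No dissociation stress gene of 16 and no housekeeping gene of 10 was called.

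Outside the fixed lists, the genes with the largest differences included several of varied function. Sptssb, a subunit of the enzyme that starts sphingolipid synthesis, was at 943 ppm in members (sets 543 to 1531) and 1.63 ppm in other cells (sets 0.77 to 2.69). Mal, a protein of apical membrane transport, was at 662 and 1.10 ppm, and the ephrin ligand Efna5 at 530 and 0.78 ppm. The gasdermin Gsdma2 (253 and 0.31 ppm), the synaptotagmin-family proteins Syt16 (285 and 0.87 ppm) and Syt8 (104 and 0.09 ppm), and the Ly6-family proteins Lypd6b (211 and 0.76 ppm) and Slurp1 (133 and 0.11 ppm) followed. Every set of members lay above every set of other cells for these 8 genes. They were picked by their difference among genes with the same direction in every set, so this separation follows largely from the choice.

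Clu, the secreted chaperone clusterin, was at 868 ppm in members and 8.82 ppm in others, and Anxa1, an annexin of inflammation control, at 140 and 0.49 ppm. Sprr2a3, a small proline-rich protein, was at 754 ppm (sets 270 to 1446) and 8.35 ppm, and Teddm3, Tesc and Vstm2b had log2 differences of 6.85, 6.37 and 6.36. Against goblet cells, Sptssb, Mal, Efna5, Gsdma2, Clu, Syt16, Slurp1, Anxa1 and Teddm3 were among the 10 genes with the largest differences, at 6.91 to 8.93.

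At the other end, 7 genes were listed at 0 in all 150 members: Slc39a5, a zinc transporter (47.2 ppm in other cells), Vnn1, an ectoenzyme that makes cysteamine (34.5 ppm), Dnase1 (32.1 ppm), Pm20d1 (22.3 ppm), Slco2b1 (20.9 ppm), Oasl2 (20.7 ppm) and Dio1, a thyroid hormone deiodinase (20.6 ppm). With the depth unknown, these zeros set no limit on the share of members that express the genes. The serotonin receptor Htr4 was at 5.59 ppm in members and 133 ppm in others, Rhoq at 1.12 and 33.5 ppm and Sec14l2 at 1.12 and 32.9 ppm. Against goblet cells, Prkg2, a kinase activated by cyclic GMP, was among the lowest at 5.59 and 112 ppm, with Grin2a (1.12 and 34.9 ppm) and Ddah1 (1.12 and 27.4 ppm).

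The members were not uniform. The 117 in the leading cluster had a median of 9.61% of their total in the selecting genes and 2210 detected genes, and the 33 outside it 0.135% and 1189. Tff1 was at 75792 ppm in the 117 and 1247 ppm in the 33, and Tff2 at 19691 and 236 ppm. Car2 was at 1986 and 20.2 ppm, and Mucl3 at 1894 and 33.7 ppm. Muc6 and Pgc were listed at 0 in the 33, and 28 of the 33 had none of the 9 other surface genes.

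Several intestinal genes were at higher levels in these 33 cells. Olfm4, a crypt base gene, was at 1415 ppm in them and 186 ppm in the 117, and the summed level of 9 Paneth cell markers at 16627 and 3079 ppm, led by the defensin Defa24 at 9523 and 1672 ppm. Over all 150 members Olfm4 was at 390 ppm and in all other cells at 1599 ppm. The summed level of 8 enterocyte markers was 11815 ppm in the 33 and 2780 ppm in the 117. Goblet cell markers did not share this pattern, with a summed level of 5964.5 ppm in the 33 and 7775.6 ppm in the 117. With only the 117 members, a choice made after seeing the data, 423 genes were higher and 1379 lower against all other cells.

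The leading cluster also held 45 cells that were not members, of which 32 had none of the 4 selecting genes. In the 45 cells Tff2 was at 10780 ppm, Gkn3 at 3673 ppm, Muc6 at 731 ppm, Pgc at 720 ppm, Muc1 at 360 ppm and Onecut2, a factor of the proximal gut, at 1157 ppm. In the 117 members the levels were 19691, 1282, 107, 131, 123 and 294 ppm, so that Tff2 was lower in the 45 and the other five genes higher. Muc5ac and Psca were listed at 0 in the 45, but of the 9 other surface genes at least 3 were above 0 in 8 of them (17.8%), against 89.7% of the 117. Stromal markers summed to 419 ppm in the 45 cells and to 1.34 ppm in the 117 members.

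Within the members some pairs of genes were found in the same cells more often than others. Psca was above 0 in 76.3% of the 59 members with Muc5ac and in 12.1% of those without. Muc5ac is a selecting gene, so shares by Muc5ac cannot be told apart from the rank. All 4 selecting genes were above 0 in 44 of the members ranked 1 to 50 and in 1 ranked 101 to 150. Gkn3 was found in 14 of 15 members with Muc6 and in 37.8% of those without. For other pairs the shares differed less: Gkn3 was found in 40.7% of members with Muc5ac and 45.1% of those without, and in 37.5% with Psca and 46.8% without, and Muc6 in 6.78% with Muc5ac and 12.1% without. Mki67 was above 0 in 41.5% of the 65 members with Gkn3 and 17.6% of those without, and in 16.1% of the 56 members with Psca and 35.1% of those without. Psca was at 2576 ppm in members ranked 1 to 50 and at 8.15 ppm in those ranked 101 to 150, and Gkn3 was above 0 in 21 and 11 of these cells. These shares rest on few cells of unequal depth, with a median of 6927 in total for ranks 1 to 50 and 4600.5 for ranks 101 to 150, and are descriptions.

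**Figure D5:**
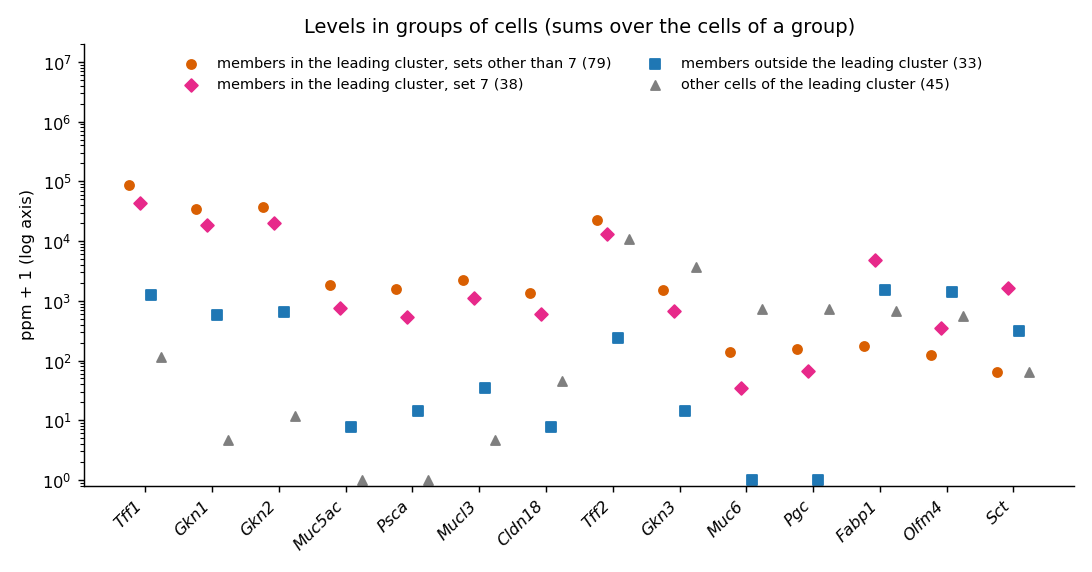
Levels (ppm + 1, log axis) of 14 genes in 4 groups of cells: members in the leading cluster from sets other than 7 (79 cells) and from set 7 (38), members outside it (33) and other cells of it (45). Muc6 and Pgc are highest in the 45 other cells (731 and 720 ppm), and Fabp1 and Sct in the set 7 members (4764 and 1643 ppm).

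Barcode set 7 stood apart. Its 38 members in the leading cluster had a median of 2.54% of their total in the selecting genes and 1576 detected genes, against 14.5% and 2511 in the 79 members of the cluster from other sets. Fabp1 was at 4764 ppm in the 38 and 172 ppm in the 79, and the hormone genes Sct (secretin) and Pyy (peptide YY) at 1643 and 1643 ppm against 63.7 and 13.1 ppm. Summed enteroendocrine markers were at 4415 ppm in the 38 and 517 ppm in the 79. Paneth markers summed to 6270 and 1814 ppm, and those of enterocytes to 7177 and 1037 ppm. Over all members Sct was at 479 ppm and Pyy at 409 ppm, against 145 and 32.3 ppm in other cells. Without set 7 the differences of Sct and Pyy against all other cells went from 1.71 and 3.62 to -0.18 and -0.25. The part of these markers in the other results was not tested.

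Without set 7 several lower calls were larger, such as Cdx1 (-2.55), Reg3a (-6.79), Reg3g (-3.08), Pigr (-1.94), Ccl25 (-2.38), Ccl28 (-2.22), Nos2 (-5.07), Cldn15 (-3.13), Car4 (-4.82), Slc26a3 (-3.25), Htr4 (-4.98) and Sec14l2 (-5.29). Smaller calls depended on single sets: the differences of Galnt12 (0.92 without set 6), Cldn7 (-0.84 without set 3), Agr3 (-0.60 without set 2), Ern1 (-0.82 without set 5) and Mcm2 (-0.99 without set 2 or set 5) were then under 1. Gkn3 was at 4.13 without set 1, against 4.80 with it. Rhoq was at -5.14 without set 1, Lct at -3.98 without set 4, Slc2a5 at -4.70 without set 6, and against goblet cells Prkg2 at -6.91 without set 7, Grin2a at -5.20 without set 4 and Ddah1 at -4.88 without set 3.

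Markers of cells outside the epithelium were near 0 in the members. Summed markers of myeloid cells, T cells, stroma, endothelium and red blood cells were each at most 4.47 ppm, and all 6 markers of B or plasma cells were at 0. Only 5 of 7 myeloid, 6 of 7 T cell, 2 of 6 stromal and 2 of 4 endothelial markers were measured. All other cells were low too, at most 14.4 ppm (red blood cells). Myeloid (4.47 and 2.51 ppm) and stromal sums (1.12 and 0.921 ppm) were higher in members, and the rest lower. Among 8 tuft cell markers, Alox5 and Gfi1b were at 0, Dclk1 was at 2.24 ppm and Trpm5 at 1.12 ppm, while Avil, an actin-binding protein, was at 147 ppm in members and 4.27 ppm in all other cells and called higher. Stem cell markers summed to 838 ppm in members and 3340 ppm in other cells. Mitochondrial genes took a median of 5.48% of a member's total, 8.20% in other cells and 7.84% in goblet cells.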

How the data were processed

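The measurement was 3′ single-cell RNA sequencing (10x Chromium with MULTI-seq segment barcodes) of sorted epithelial cells of 8 diet samples. The submitters used Cell Ranger and mm10, per the submitters' processing notes, and no version or cell filter is stated there. The values of the authors' deposited table (20090 genes, 27881 cells) were treated as a score and not as counts. They were whole numbers, but 25.3% of cells had more 2s than 1s, and the total of a cell was never under 2764 or over 9739. The depth is therefore unknown, no count test was suitable, and expression values carry no interval. No barcode suffix could be matched to a sample, so the table is 1 pooled sample.

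The members, gene lists and rules were chosen with earlier results of these data known. Goblet cells that were members were left out of the comparison group. Beyond the selecting and listed genes, the text names the 15 called genes with the largest positive and the 10 with the largest negative difference against all other cells, and 10 and 10 against goblet cells, except that a few of these and of the listed genes are not reported here. Clustering used 30 principal components of 2000 variable genes, 15 neighbours and resolution 1 (scanpy 1.11.5, leidenalg 0.10.2, igraph 0.11.9). All cells were kept. Scrublet (expected rate 0.06) marked 45 cells as doublets (0.161%), below the 0.5% taken as the least for a working caller, and no member was among them, so doublets may remain. Shares carry exact Clopper-Pearson 95% intervals. Promoter sequences are from RefSeq (GRCm38.p6), matched by symbol for 3 of the 6 trefoil and gastrokine genes, and positions from GENCODE M21. The comparison was tested on simulated data. The calculations ran in Python 3.11.15 with pandas 2.3.3, numpy 2.4.6 and scipy 1.17.1, and the plots in matplotlib 3.10.9. Alternatives varied the number of members, the filter, the pseudocount, the weighting and matching of cells, doublets, the clustering and each barcode set.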

Additional observations from a re-analysis of the deposited data

Results flagged for a closer look

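Over the 6 barcode sets with at least 5 members, 31 sets of values were examined for a set that stood far from the others, and 4 such values were found; chance gives about 1 in 20. Summed goblet markers of the members were highest in set 4, at 18904 ppm against 5573 to 8850 ppm in the other sets, and set 4 was also highest among all other cells (14102 ppm, with a low of 1898 ppm). Summed enteroendocrine markers of the members were highest in set 7, at 3916 ppm against 43.1 to 1164 ppm. Set 7 was also highest for them among all other cells (2003 ppm, with a low of 563 ppm). The median log2 difference of the 2 parietal cell genes measured was lowest in set 4, at -4.03 against -1.98 to -1.01. That of the squamous genes was highest in set 4, at 0.00 against -0.20 to -0.14. Set 4 held 9 members, and the causes were not tested.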

How the results depend on the processing

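No paired analysis was possible because the deposited table pools all samples and no column carries a sample or replicate number. The count of genes higher or lower against all other cells was 375 and 1063. It was 371 to 494 and 1030 to 1434 without each barcode set in turn, and against goblet cells 372 to 491 and 753 to 1184, from 376 and 802. The lower count moved with membership: against all other cells it was 1710 for the 100 highest-scoring cells, 1966 for members with all 4 selecting genes and 174 for 300 cells, and against goblet cells 1348, 1584 and 107. With 300 cells 142 and 141 genes were higher. With a minimum of 1 ppm, 1976 genes were lower against other cells and 1314 against goblet cells, and with no filter 2557 and 1495.

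The leading cluster held 99.0% of the 100 highest-scoring cells and 40.0% of 300. The share of members from set 7, 30.0%, was 17.0% of 300 cells and 18.6% of members with all 4 genes. With 300 cells the list medians were 7.76 for other surface genes, 0.18 for secretory genes, -0.27 for transport genes and 1.10 for keratins. With all 4 genes required they were 9.18 for other surface genes, 1.10 for chief cell genes, -0.20 for mucus genes and -2.26 for antimicrobial genes, which were at -2.38 for 100 cells and -2.01 for members with at least 1% of their total in the selecting genes, a choice made after seeing the data. With a pseudocount of 10 ppm other surface genes were at 5.84 and squamous genes at -0.01, and squamous genes were at 0.00 against cells matched on detected genes. The O-glycan median was 0.02 to 0.27 without each set. Of 505 list medians under the alternatives, 491 stayed within the standard deviation of that list over the sets. The settings with a minimum of 1 ppm and with no filter cannot move a median, so their values stayed by construction. The standard deviation was wide for some lists. For distal genes it was 2.77, so a move from -1.55 to -3.03 with only the members of the leading cluster counted as staying.

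Of 5706 values of called genes, 5396 stayed within the standard deviation of that gene over the sets. The settings that change only the ppm filter cannot move these values either. In 16 values the sign changed, all against goblet cells. With 300 cells the values that changed sign were Aqp1 (0.17), Ccl28 (0.10), Htr4 (0.23), Kcnq1 (0.26), Lgr5 (0.39), Olfm4 (0.12), Rgmb (0.21), Slc12a2 (0.35) and Smoc2 (0.35). Against the 150 cells with the highest mucus gene score they were Clca1 (-1.30), Foxa3 (-0.11), Kcnq1 (0.16), Slc12a2 (0.01), Smoc2 (0.77), Sst (0.26) and Sytl2 (-0.30). The causes were not tested. The depth behind the values is unknown, so a gene listed at 0 may have been present below detection.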
